A study of Drosophila melanogaster with 20 samples.

Results

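The zinc finger transcription factor Senseless (Sens) was overexpressed in eye-antennal discs, the imaginal tissue that forms eye and antenna, of *Drosophila melanogaster* larvae in the third instar, and its effect on every gene measured was compared with control discs. The comparison takes in 3 arrays of the line atoGal4 x UASsens, called Sens GOF (gain of function) here, and 8 control arrays, which are 11 of the 20 arrays of the series. The controls are 2 arrays each of the driver lines Gal4/7 and atoGal4, the transgene line UASato and the wild-type strain CantonS. In Sens GOF, a Gal4 driver under control of the *atonal* (*ato*) locus switches on a *sens* transgene, so that only the cells in which the driver is active carry the excess Sens, while the RNA comes from whole discs. No control carries UASsens without a driver, and the UASato line carries the *ato* transgene without a driver. The larvae of all lines, controls included, grew at 18 °C, and in the third instar the vials were kept for 24 hours at 28 °C. The study calls the arrays of each line biological replicates. The labels do not say whether they came from separate crosses, so the p-values measure only the spread between these arrays. Because RNA came from whole discs, fewer cells of a type and less RNA per cell cannot be told apart in what follows.

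Sens is the fly relative of the vertebrate protein Gfi1 and is known for its part in sensory organ formation. Proneural proteins such as Atonal switch on *sens* in sensory precursors, and in the eye disc Atonal and Sens set the fate of R8, the first photoreceptor of each ommatidium, which then recruits the photoreceptors R1 to R7. Sens binds DNA and can repress genes directly, and it can also act together with proneural proteins to activate them.

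The transgene was visible in the arrays. The log2 value of *sens* was 12.19, 12.15 and 11.69 in Sens GOF arrays 1, 2 and 3, and 7.98 to 8.70 with a median of 8.47 in the 8 controls. The difference was 3.59 ± 0.16 (log2, standard error), or 12.1-fold, with an adjusted p of 2.51e-06 (limma, adjusted by Benjamini-Hochberg over 18769 probe sets; all adjusted p-values below are of this kind). All 3 Sens GOF arrays lay above every control. The driver gene *ato* itself stood at 9.29, 9.28 and 9.55 in Sens GOF and at 9.27 to 10.01 in the controls, and the difference of -0.36 ± 0.15 did not pass the test (adjusted p = 0.236).

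Arrays 1 and 2 of Sens GOF were nearly the same, which bears on every p-value. The standard deviation of the difference between arrays 1 and 2, over all probe sets, was 0.149 on the log2 scale, while the other 15 pairs of arrays of 1 line gave 0.325 to 0.759, and arrays 1 and 2 stood at 0.487 and 0.501 from array 3. Arrays 1 and 2 thus differed by less than any other such pair. Every gene was fitted both with the 3 arrays as labelled and with arrays 1 and 2 averaged into 1, and the adjusted p of the second fit is given after that of the first, marked averaged, for every gene that was called. The control array CantonS 1 also stood apart. Without it, 551 genes in place of 265 were lower in Sens GOF, and 323 in place of 204 were higher, at an adjusted p under 0.05. Leaving out Sens GOF array 1, 2 or 3 left 32, 42 or 116 lower and 35, 31 or 153 higher genes. Markers of the labelled tissue were present. In the Sens GOF arrays the eye genes ranged from 11.04 to 11.22 for *eya*, 10.47 to 10.89 for *dac*, 9.21 to 9.44 for *so* and 8.74 to 9.07 for *ey*. The mean log2 level of 9 antennal genes was 8.61, 8.71 and 8.55 in the Sens GOF arrays and 8.31 to 8.93 in the controls, so that the discs held both eye and antenna.

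Of 11982 genes, 265 were lower (2.21%) and 204 were higher (1.70%) in Sens GOF at an adjusted p under 0.05 with 3 arrays. With arrays 1 and 2 averaged, 41 genes were lower (0.342%) and 31 were higher (0.259%), and each of these 72 had also passed with 3 arrays in the same direction. At stricter limits, set on the p-value and fold that the study names for this comparison and taken here on adjusted p-values, 41 genes were lower (0.342%, adjusted p under 0.01) and 21 were higher by more than 2-fold (0.175%, adjusted p under 0.05), which became 4 and 9 with arrays 1 and 2 averaged. An unadjusted p under 0.01 took in 576 lower genes. Most changes were small. The median size was 0.53 (log2) among the 265 lower genes, of which 14 changed by more than 2-fold, and 0.49 among the 204 higher genes. All 469 called genes had the same direction in array 3 alone, although that array takes part in the call.

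**Figure D1:**
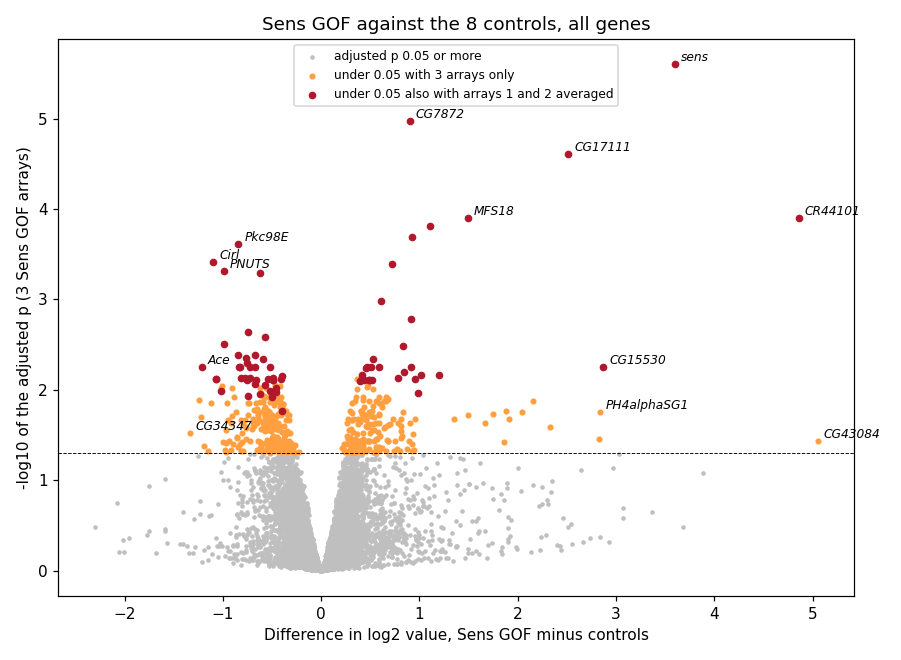
Difference in log2 value between Sens GOF and the 8 controls (horizontal) against −log10 of the adjusted p with 3 Sens GOF arrays (vertical, the dashed line marks 0.05), 1 point per gene. Orange points passed only with 3 arrays and red points, 31 higher and 41 lower, passed also with arrays 1 and 2 averaged. The largest increases exceed any decrease, since no called gene fell by more than 1.34.

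Beside *sens*, 3 of the largest increases held in both fits and had low values in the controls. The non-coding RNA CR44101 stood at 8.83, 9.02 and 7.86 in Sens GOF against 3.21 to 4.95 with a median of 3.54 in the controls, a rise of 4.86 ± 0.37 (adjusted p = 1.27e-04, and 0.00227 averaged). CG17111 stood at 6.55, 6.66 and 6.48 against 3.67 to 4.41 and rose by 2.51 ± 0.15 (adjusted p = 2.48e-05, and 6.36e-04 averaged). CG15530 stood at 6.92, 7.03 and 5.54 against 3.15 to 4.57 and rose by 2.87 ± 0.39 (adjusted p = 0.00555, and 0.0461 averaged). In each of these 3 genes every Sens GOF array lay above every control, which was a condition for the choice of the largest increases. For CR44101 and CG15530 array 3 was the lowest of the 3. The largest difference of all was that of CG43084, at 11.42, 11.51 and 11.05 against 3.30 to 8.63 with a median of 6.44 (5.05 ± 1.14, adjusted p = 0.0371, and 0.153 averaged). All 3 Sens GOF arrays lay above the controls, which themselves spread widely, and the call was lost with arrays 1 and 2 averaged.

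Other large increases were uneven among the Sens GOF arrays. CG33489 stood at 6.55, 6.60 and 3.68 against 3.17 to 3.41 in the controls, so that array 3 was just above the controls, and its rise of 2.33 ± 0.48 was called with 3 arrays alone (adjusted p = 0.0255, and 0.151 averaged). CG33490, its neighbour in the RefSeq gene order, was chosen after its values were seen and had the same pattern, with 5.64, 5.63 and 3.65 against 3.19 to 3.54 (adjusted p = 0.0234, and 0.143 averaged). CG6225 (2.16, adjusted p = 0.0133, and 0.0851 averaged) was also highest in arrays 1 and 2, whereas CG31436 (1.88, adjusted p = 0.0172, and 0.0876 averaged) was even, at 7.57, 7.61 and 7.48, and CG15353 (1.86, adjusted p = 0.0379, and 0.124 averaged) was highest in array 3. *veil* rose by 2.04 ± 0.38 (adjusted p = 0.0178, and 0.101 averaged). None of these genes passed with arrays 1 and 2 averaged.

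**Figure D2:**
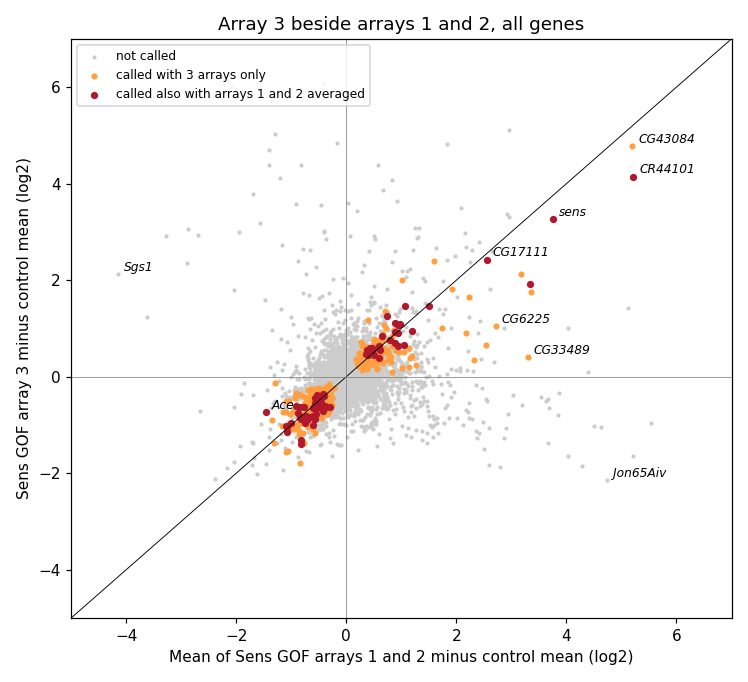
Difference from the control mean (log2) in Sens GOF array 3 (vertical) against the mean of arrays 1 and 2 (horizontal), 1 point per gene with the line of equality. Called genes lie on the same side of 0 on both axes. CG33489 is high in arrays 1 and 2 alone, and the gut gene *Jon65Aiv* and the glue gene *Sgs1*, which were not called, are far apart between array 3 and the others.

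A further set of increases held with arrays 1 and 2 averaged. These were picked out after their values were seen, as the genes called in both fits. *MFS18*, which belongs to the major facilitator family of transporters, stood at 9.21, 9.30 and 9.23 against 7.504 to 8.04 and rose by 1.49 ± 0.11 (adjusted p = 1.27e-04, and 0.00227 averaged). CG7872 stood at 10.66, 10.67 and 10.71 against 9.73 to 9.86, a rise of 0.90 ± 0.05 but with little spread (adjusted p = 1.05e-05, and 2.80e-04 averaged). CG5276 rose by 1.10 ± 0.09 (adjusted p = 1.53e-04, and 0.0025 averaged), CG13033 by 0.93 ± 0.08 (adjusted p = 2.06e-04, and 0.00227 averaged), CG9864 by 1.20 ± 0.17 (adjusted p = 0.00686, and 0.0313 averaged) and *geko* by 1.01 ± 0.15 (adjusted p = 0.00686, and 0.0454 averaged). *Zmynd10*, needed in flies for the dynein arms of motile cilia in chordotonal neurons and sperm, stood at 5.34, 5.71 and 5.77 against 4.33 to 4.99 and rose by 0.96 ± 0.14 (adjusted p = 0.00759, and 0.0368 averaged).

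Among the proneural and precursor genes, 1 of 13 measured rose and none fell. This was *cato*, a bHLH gene related to *ato* that acts in sensory neuron precursors, at 5.96, 6.08 and 6.003 in Sens GOF against 4.87 to 5.47 with a median of 5.25 (0.78 ± 0.12, adjusted p = 0.0075, and 0.0495 averaged). All 3 Sens GOF arrays of *cato* were above every control. *ase*, a bHLH gene of neural precursors, stood at 6.995, 7.17 and 7.30 against 6.11 to 7.28 (adjusted p = 0.317), and the groups overlapped. The median of the 13 genes was 0.11 against -0.01 over all genes, of which 1.70% were higher and 2.21% lower with 3 arrays. In the list of R8 genes, *da*, which encodes the bHLH partner of Atonal, was lower at 10.74, 10.68 and 10.64 against 10.96 to 11.16 (-0.36 ± 0.07, adjusted p = 0.0173, and 0.0756 averaged). It was the 1 lower gene of the 6 measured in this list, and the 1 higher gene was *sens* itself. *boss*, the ligand by which R8 induces R7, stood at 6.70, 6.73 and 6.42 against 6.17 to 6.83 (adjusted p = 0.698), *phyl*, a target of proneural proteins, at 9.49, 9.51 and 9.50 against 9.44 to 9.93 (adjusted p = 0.279) and *neur*, which promotes the endocytosis of Delta, at 9.22, 9.44 and 9.31 against 9.25 to 9.77 (adjusted p = 0.39). In each of these 3 the Sens GOF arrays overlapped the controls.

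The genes by which the other photoreceptors are made lay on the low side. *ro*, a homeobox gene that Sens is known to repress in R8, stood at 7.29, 7.42 and 7.19 in Sens GOF and at 7.03 to 7.96 in the controls, with complete overlap (difference -0.11 ± 0.16, adjusted p = 0.761). All 9 measured genes of R1 to R7 had a difference below 0, with a median of -0.28, and 2 were called with 3 arrays. Over all genes the median was -0.01, and 2.21% were lower with 3 arrays. *salr*, a zinc finger gene of R3, R4 and R7, stood at 7.76, 7.73 and 8.23 against 8.34 to 8.94 (-0.70 ± 0.14, adjusted p = 0.0245, and 0.144 averaged). *B-H2*, a homeobox gene of R1 and R6, stood at 9.53, 9.56 and 9.68 against 9.84 to 10.32 (-0.52 ± 0.10, adjusted p = 0.0231, and 0.126 averaged). Neither held with arrays 1 and 2 averaged.

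Of 5 retinal transcription factors, 2 were lower with 3 arrays, where 2.21% of all genes were. *klu*, a zinc finger gene, stood at 8.05, 7.94 and 7.89 against 8.38 to 9.14 (-0.91 ± 0.15, adjusted p = 0.00968, and 0.0583 averaged), although its second, dim probe set did not pass (difference -0.11, adjusted p = 0.517, and 0.598 averaged). *gl*, which encodes Glass, the photoreceptor factor of all ommatidial neurons, stood at 10.70, 10.82 and 10.66 against 10.97 to 11.41 (-0.45 ± 0.10, adjusted p = 0.0334, and 0.121 averaged). In both genes the Sens GOF arrays lay below every control. Of the 8 retinal determination genes, *so* alone was lower (-0.57 ± 0.11, adjusted p = 0.0189, and 0.0771 averaged), and the median was -0.30. *kirre*, an adhesion gene of the interommatidial cells, was the 1 lower gene among 7 of cone and pigment cells (-0.48 ± 0.10, adjusted p = 0.0226, and 0.135 averaged). *elav*, the RNA-binding protein of differentiated neurons, stood at 9.74, 9.78 and 9.80 against 9.94 to 10.45 (-0.48 ± 0.10, adjusted p = 0.0263, and 0.127 averaged). It was the 1 called gene of 4 measured in a list of ELAV family and neuronal RNA-binding genes. Of these 4, 2 had differences below 0 and 2 above, with a median of -0.01. All of these calls were lost with arrays 1 and 2 averaged.

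Genes of axons and synapses gave some of the largest decreases. *Ace*, which encodes acetylcholinesterase, stood at 7.68, 7.70 and 8.43 in Sens GOF and at 8.78 to 9.40 with a median of 9.18 in the controls, a difference of -1.22 ± 0.17 (adjusted p = 0.00555, and 0.0461 averaged). *Cirl*, an adhesion receptor of the latrophilin type, stood at 8.04, 8.09 and 7.99 against 8.97 to 9.37 with a median of 9.11 (-1.10 ± 0.10, adjusted p = 3.88e-04, and 0.00452 averaged), and its second probe set fell with 3 arrays only (difference -0.95, adjusted p = 0.00968, and 0.068 averaged). *brp*, the scaffold protein of presynaptic active zones, stood at 6.205, 6.04 and 6.21 against 6.60 to 7.52 with a median of 7.21 (-1.07 ± 0.16, adjusted p = 0.00766, and 0.0495 averaged). For these 3 genes every Sens GOF array was below every control, which was a condition for the choice of the largest decreases. Array 3 was the highest of the 3 for *Ace* and the lowest for *Cirl*. Of the 4 probe sets of *brp*, 1 other fell with 3 arrays only (difference -1.0004, adjusted p = 0.0395, and 0.142 averaged) and the 2 dim ones did not pass.

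**Figure D3:**
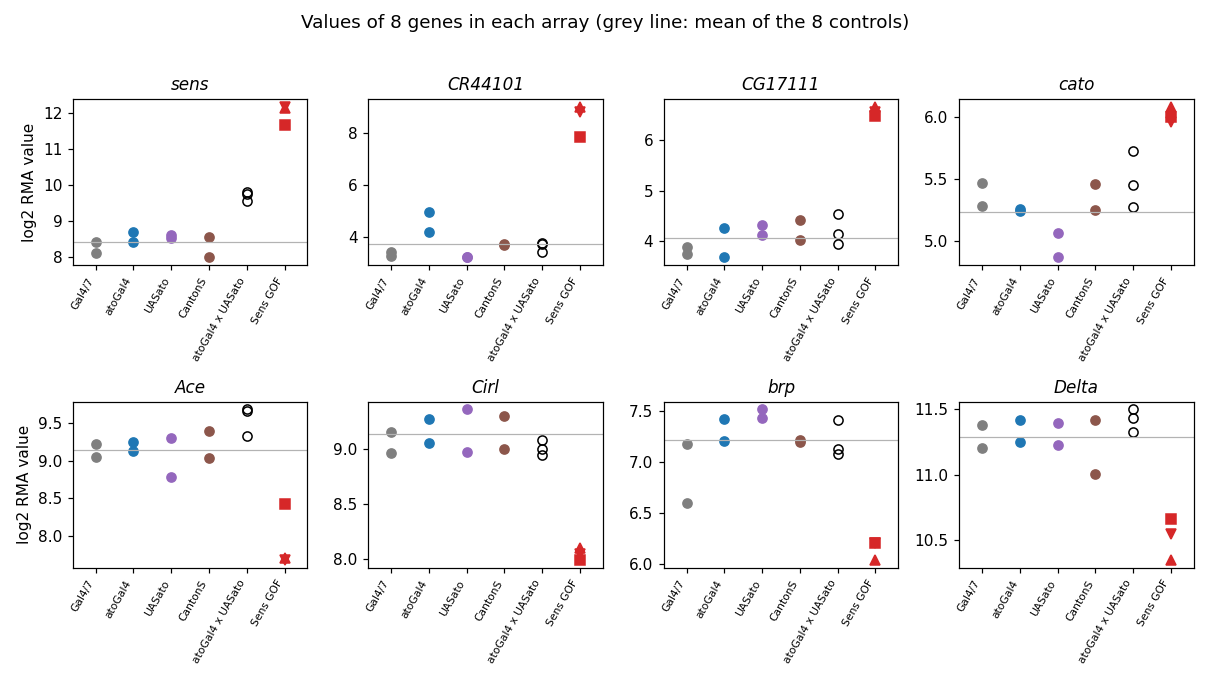
Log2 RMA value of 8 genes in each array: 2 arrays for each control line (filled circles), 3 of atoGal4 x UASato (open circles) and 3 of Sens GOF (red; triangles for arrays 1 and 2, a square for array 3), with the mean of the 8 controls as a grey line. In all 8 genes the Sens GOF arrays lie outside the controls, above them in *sens*, CR44101, CG17111 and *cato* and below them in *Ace*, *Cirl*, *brp* and *Delta*. For CR44101, CG17111, *Ace*, *Cirl* and *brp* this was a condition of their choice.

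*unc-13*, which primes synaptic vesicles, stood at 8.42, 8.54 and 8.63 against 9.15 to 10.09 (-1.12 ± 0.20, adjusted p = 0.014, and 0.0775 averaged), and *Liprin-alpha*, an organizer of the active zone, at 7.54, 7.62 and 7.29 against 7.67 to 8.40 (-0.68 ± 0.14, adjusted p = 0.0231, and 0.087 averaged). Of 9 active zone genes, in a list written after values were seen, 4 were lower with 3 arrays and 2 with arrays 1 and 2 averaged, none was higher and the median was -0.32. Over all genes 2.21% were lower with 3 arrays. Of 9 genes of synaptic vesicles and release, 2 were lower, and these were *unc-13* and *brp* again. Of 13 genes of the neuronal cytoskeleton and axon, 3 were lower with 3 arrays and none with arrays 1 and 2 averaged, with a median of -0.39. These were *jeb*, the ligand of the receptor Alk (-0.95 ± 0.19, adjusted p = 0.0216, and 0.0911 averaged), *robo1*, the receptor of Slit (-0.77 ± 0.15, adjusted p = 0.0216, and 0.13 averaged), and *CadN*, the neuronal cadherin (-0.73 ± 0.16, adjusted p = 0.0369, and 0.19 averaged). In *robo1* and *CadN* array 3 lay within the controls, of which CantonS 1 was the lowest. *Dscam2*, an immunoglobulin protein of neurite tiling, was among the largest decreases (-1.24 ± 0.21, adjusted p = 0.013, and 0.0588 averaged), with 3 of its 5 probe sets not called. No member was called, with either fit, among 12 immunoglobulin wiring genes, 8 ion channel genes and 12 genes of ciliated sensory neurons, where an unadjusted p under 0.05 took in 1 lower and 1 higher, 1 lower and 2 higher, and 1 lower and 0 higher. Their medians were 0.01, 0.07 and 0.02. The other, dim probe set of *fd3F*, a gene of the ciliated list, rose with 3 arrays only (difference 0.30, adjusted p = 0.0373, and 0.138 averaged).

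The remaining large decreases had little in common by name. *miple1*, a secreted protein of the midkine family, stood at 8.79, 8.90 and 8.87 against 9.52 to 10.35 (-1.07 ± 0.16, adjusted p = 0.00765, and 0.0495 averaged), and CG9902 at 6.41, 6.28 and 5.79 against 6.82 to 7.51 (-1.02 ± 0.17, adjusted p = 0.0103, and 0.0461 averaged). *Gld2*, a cytoplasmic poly(A) polymerase, was lower with 3 arrays (-1.02 ± 0.16, adjusted p = 0.00968, and 0.0586 averaged), as were CG34347 (-1.34 ± 0.29, adjusted p = 0.0301, and 0.13 averaged), lncRNA:CR33963 (-1.22 ± 0.24, adjusted p = 0.0198, and 0.0776 averaged), CG32026 (-1.20 ± 0.28, adjusted p = 0.042, and 0.16 averaged) and CG11360 (-1.16 ± 0.28, adjusted p = 0.0476, and 0.119 averaged). The brightest probe set of CG34347 did not hold with arrays 1 and 2 averaged, whereas another of its 5 probe sets did (difference -0.65, adjusted p = 0.00741, and 0.0452 averaged). Some genes with smaller decreases, picked out after their values were seen, had very even Sens GOF arrays. *Pkc98E*, a protein kinase C, stood at 8.81, 8.78 and 8.80 against 9.51 to 9.78 (-0.84 ± 0.07, adjusted p = 2.43e-04, and 0.00376 averaged). *PNUTS*, a nuclear regulator of protein phosphatase 1, stood at 8.57, 8.52 and 8.59 against 9.24 to 9.75 (-0.99 ± 0.09, adjusted p = 4.82e-04, and 0.0071 averaged). *Hnf4*, a nuclear receptor of lipid metabolism, stood at 8.73, 8.80 and 8.71 against 9.29 to 9.52 (-0.62 ± 0.06, adjusted p = 5.17e-04, and 0.0069 averaged), and *path*, an amino acid transporter, at 10.42, 10.43 and 10.38 against 11.01 to 11.54 (-0.85 ± 0.11, adjusted p = 0.00409, and 0.0313 averaged).

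In the signaling pathways of the eye disc, the Notch ligand *Delta* was lower in both fits. It stood at 10.55, 10.35 and 10.66 in Sens GOF and at 11.004 to 11.41 with a median of 11.31 in the controls (-0.77 ± 0.10, adjusted p = 0.00444, and 0.0322 averaged), with no overlap. Its second probe set, of similar brightness, did not pass (difference -0.22, adjusted p = 0.38, and 0.666 averaged). *Delta* was the 1 called gene of 5 measured in the Notch pathway, and none of 13 genes of the Notch-responsive E(spl) and Brd clusters was called (median -0.0045; 2 lower at an unadjusted p under 0.05). Of these, *Tom* stood at 11.45, 11.44 and 11.78 against 11.68 to 12.22 and *E(spl)mdelta-HLH* at 11.30, 11.27 and 11.30 against 11.31 to 11.77 (adjusted p = 0.088 and 0.358). All 10 measured genes of EGFR and Ras signaling had differences below 0, from -0.65 to -0.16, and none passed (limma, 6 at an unadjusted p under 0.05). The ligand *spi* stood at 11.44, 11.43 and 11.30 against 11.54 to 11.85 and the repressor *aop* at 11.61, 11.63 and 11.52 against 11.62 to 12.11 (adjusted p = 0.0663 and 0.0904). Of 10 genes of Hedgehog, Dpp and Wingless signaling, *nkd*, an antagonist of Wingless, was lower with 3 arrays (-0.53 ± 0.12, adjusted p = 0.0396, and 0.168 averaged), with 1 Sens GOF array inside the control range. Beside these counts, 2.21% of all genes were lower with 3 arrays and 0.342% with arrays 1 and 2 averaged. At an unadjusted p under 0.05, 1229 of 11982 genes were lower (limma).

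Some regulators of transcription were also lower. *Taf4*, a subunit of the general factor TFIID, stood at 10.27, 10.30 and 10.06 against 10.71 to 11.01 (-0.67 ± 0.09, adjusted p = 0.00409, and 0.0227 averaged), and its second probe set fell with 3 arrays only (difference -0.52, adjusted p = 0.0201, and 0.0654 averaged). It was the 1 called gene of 12 TFIID subunits. *simj*, a subunit of the NuRD complex, stood at 8.50, 8.42 and 8.48 against 8.90 to 9.16 (-0.57 ± 0.07, adjusted p = 0.00262, and 0.0226 averaged), and the corepressor *Smr* at 9.92, 9.89 and 10.06 against 10.27 to 10.57 (-0.49 ± 0.07, adjusted p = 0.00736, and 0.0495 averaged). With *gro*, the Groucho corepressor (-0.32 ± 0.08, adjusted p = 0.0462, and 0.126 averaged), 3 of 7 corepressor genes were lower with 3 arrays and 2 with arrays 1 and 2 averaged, and none was higher. Over all genes 2.21% and 0.342% were lower in these fits. Of 5 genes of the super elongation complex and P-TEFb, 3 were lower with 3 arrays and only the first of these with averaging, namely *lilli* (-0.74 ± 0.12, adjusted p = 0.0119, and 0.0469 averaged), *CycT* (-0.82 ± 0.16, adjusted p = 0.0213, and 0.121 averaged) and *Su(Tpl)* (-0.44 ± 0.10, adjusted p = 0.0351, and 0.175 averaged). Of 10 genes of the NSL and MSL complexes, *nsl1* was lower (-0.75 ± 0.11, adjusted p = 0.00777, and 0.0207 averaged), while 6 of the 10 had differences above 0 and the median was 0.10. Of 11 remodeler genes, 2 were lower with 3 arrays, neither with averaging, namely *E(bx)* (-0.74 ± 0.14, adjusted p = 0.0189, and 0.0831 averaged) and *dom* (-0.70 ± 0.14, adjusted p = 0.0215, and 0.12 averaged). The other 2 probe sets of *dom*, of similar brightness, did not pass, 1 with a difference -0.36, adjusted p = 0.195, and 0.487 averaged, and 1 with a difference -0.32, adjusted p = 0.131, and 0.358 averaged. Of 25 Mediator subunits, *MED26* was lower (-0.23, adjusted p = 0.0484, and 0.173 averaged) and *MED7* higher (0.53, adjusted p = 0.0239, and 0.101 averaged), both with 3 arrays only. The lists of this paragraph were written after values were seen.

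The higher genes included receptors, peptidases and transferases that handle secreted proteins, and each change was below 2-fold. The lists of secretory genes were written after values were seen, and 1.70% of all genes were higher. Of 6 measured p24 cargo receptors, which carry proteins between endoplasmic reticulum and Golgi, 3 rose. *CHOp24* stood at 11.14, 11.13 and 11.23 against 10.46 to 10.78 (0.51 ± 0.07, adjusted p = 0.00555, and 0.0394 averaged), *bai* rose by 0.44 (adjusted p = 0.00777, and 0.0414 averaged) and *eca* by 0.44 (adjusted p = 0.0189, and 0.068 averaged). Of the 4 signal peptidase genes, which cut leader peptides, 3 rose, with *Spase25* at 11.84, 11.85 and 11.96 against 11.40 to 11.58 (0.40 ± 0.06, adjusted p = 0.00797, and 0.0469 averaged), *Spase22-23* at 0.50 (adjusted p = 0.019, and 0.107 averaged) and *twr* at 0.33 (adjusted p = 0.0366, and 0.0968 averaged). Of 13 genes that assemble N-glycans, 5 rose and none fell, with a median of 0.27 over the 13. These included *wol*, a glucosyltransferase of the lipid-linked precursor, at 10.40, 10.35 and 10.54 against 9.78 to 10.07 (0.49 ± 0.07, adjusted p = 0.00782, and 0.0461 averaged), *Alg1* (0.51, adjusted p = 0.00777, and 0.0633 averaged) and *Alg2* (0.59, adjusted p = 0.012, and 0.066 averaged).

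Of 10 genes of sulfation, 2 rose. *Papst2*, which moves the sulfate donor PAPS into the Golgi, stood at 8.47, 8.50 and 8.68 against 7.73 to 7.94 (0.72 ± 0.07, adjusted p = 4.08e-04, and 0.00376 averaged), and *Papss*, which makes PAPS, at 8.94, 8.81 and 8.99 against 8.34 to 8.56 (0.47 ± 0.06, adjusted p = 0.00553, and 0.0289 averaged). Of 11 genes of mucin-type O-glycosylation, *Pgant6* at 10.27, 10.31 and 9.91 against 9.08 to 9.43 (0.92 ± 0.10, adjusted p = 0.00166, and 0.0199 averaged) and *Pgant1* (0.66, adjusted p = 0.0133, and 0.0834 averaged) rose, and *Pgant5* fell (-0.51, adjusted p = 0.0413, and 0.181 averaged). In all of these genes the Sens GOF arrays lay beyond every control. The translocon, the oligosaccharyltransferase and the COPII coat had 0 called of 7, 5 and 5 genes, with medians of 0.12, 0.11 and 0.07 (log2). At an unadjusted p under 0.05, where 1229 genes of all were lower and 1150 higher, these 3 lists had 2, 1 and 1 higher members and no lower one.

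Genes of the salivary gland, which lies near the discs in the larva and secretes glue, were high in some arrays. *PH4alphaSG1*, a prolyl 4-hydroxylase of that gland, stood at 8.53, 8.47 and 7.45 in Sens GOF against 4.19 to 6.73 with a median of 5.17 in the controls (2.83 ± 0.53, adjusted p = 0.0175, and 0.102 averaged), and its relative *PH4alphaSG2* at 9.93, 9.92 and 8.32 against 5.12 to 7.80 (2.83 ± 0.63, adjusted p = 0.0354, and 0.177 averaged). *sage*, a bHLH factor of the gland, was at 10.16, 10.29 and 10.82 against 5.99 to 9.47 and *fkh* at 7.51, 7.66 and 7.41 against 5.76 to 7.88 (adjusted p = 0.133 and 0.274). The glue gene *Sgs3* was at 12.80, 12.84 and 14.37 in Sens GOF and ranged from 5.74 to 14.34 in the controls, while *Sgs1* was at 4.82, 5.01 and 11.20 against 4.24 to 11.93. Of the 9 salivary gland markers 1 rose, where 1.70% of all genes did, and none fell (limma, also the count at an unadjusted p under 0.05), with a median difference of 1.46. Their mean log2 level was 10.86, 10.92 and 12.46 in the Sens GOF arrays and 5.58 to 12.29 in the controls. The mean level of the markers thus varied widely among the controls, and Sens GOF arrays 1 and 2 lay inside that range and array 3 above it. *Papst2*, 1 gene picked from the secretory lists, ranged from 7.73 to 7.94 in the same controls. A narrow control range makes a call more likely, so the range of a called gene cannot decide on gland RNA. All 3 Sens GOF arrays of *PH4alphaSG1*, *PH4alphaSG2* and *sage* lay above every control, while those of *fkh* overlapped the controls. For *PH4alphaSG1* and *PH4alphaSG2*, taken among the largest increases, this was a condition of the choice. The part of gland RNA in the rise of the secretory genes was not tested.

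**Figure D4:**
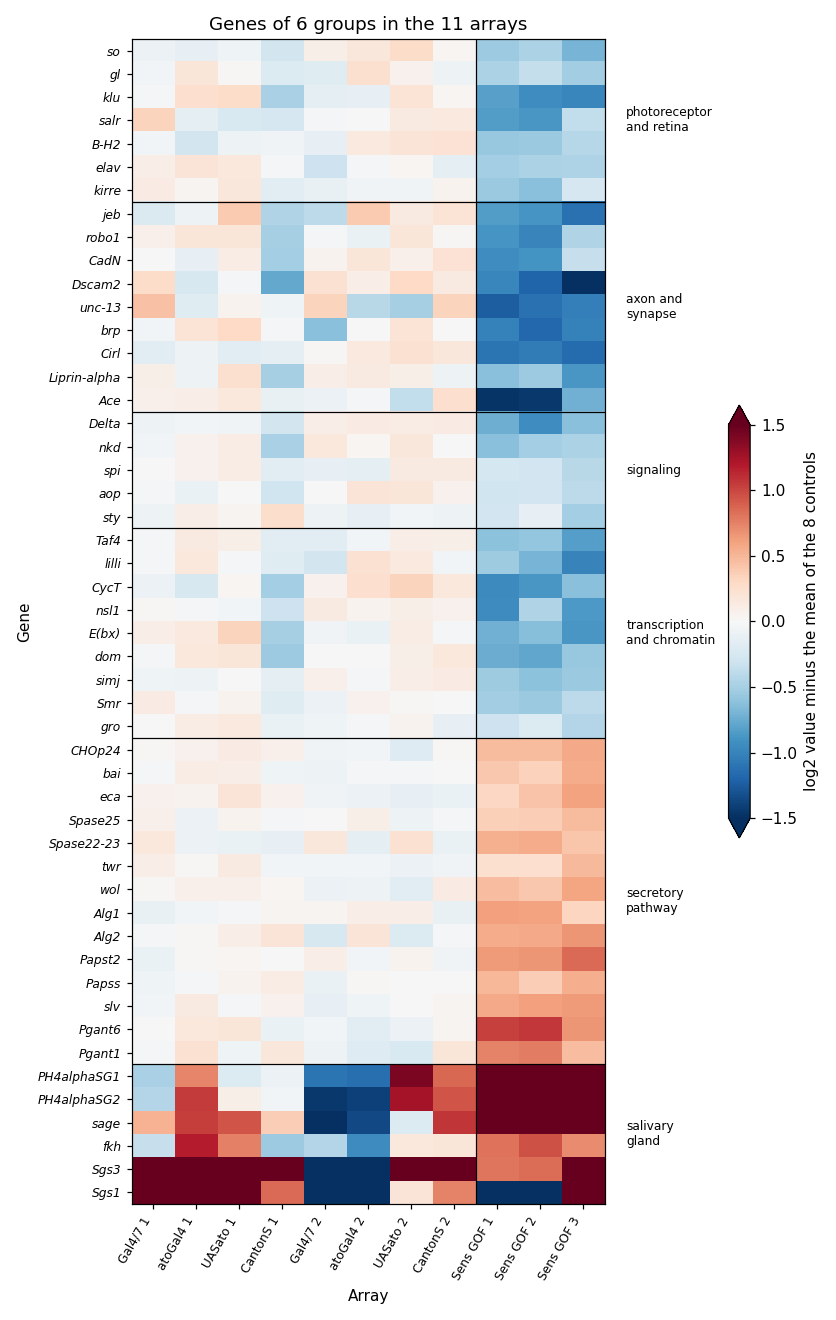
Log2 value minus the mean of the 8 controls (blue lower, red higher, colours end at −1.5 and 1.5) for genes of 6 groups in the 8 controls (left of the line) and the 3 Sens GOF arrays (right), a description in which named genes of each group are shown and not all members. The salivary gland genes shown vary more among the controls than the secretory genes shown. The secretory genes shown were all called, which favours a narrow spread in the controls.

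Markers of other tissues that can adhere to discs were not called in any list, and array 3 differed from arrays 1 and 2 in some. The 7 muscle genes had a median of 0.63 and mean levels of 9.78, 9.79 and 8.81 in the Sens GOF arrays and 8.25 to 10.78 in the controls. The 6 midgut genes had a median of 0.22 and mean levels of 6.81, 6.795 and 4.84 in the Sens GOF arrays and 4.72 to 10.15 in the controls. The hemocyte and fat body lists had medians of 0.32 over 8 and 0.13 over 3 genes, and glia and neuroblasts had -0.14 and -0.01 over 8 genes each. All of these mean levels in Sens GOF were inside the control range, but those of the trachea and peripodial list were not. None of its 4 measured genes was called, and their median was -0.05. Its mean level ranged from 10.39 to 10.82 in the controls. Sens GOF arrays 1 and 2 lay above that range, with 10.96 in array 1, and array 3 lay just below it, at 10.35. *Dll* was the 1 lower gene of 9 of the antennal disc (-0.64 ± 0.12, adjusted p = 0.0193, and 0.0846 averaged), and of its other 2 probe sets 1 fell with 3 arrays only (difference -1.09, adjusted p = 0.012, and 0.071 averaged) and 1 did not pass (difference -0.02, adjusted p = 0.963, and 0.922 averaged). Of the 9 ecdysone and stage genes *br* alone was lower (-0.46 ± 0.11, adjusted p = 0.0387, and 0.162 averaged). Of its 5 probe sets, 1 other fell with 3 arrays only (difference -0.87, adjusted p = 0.0133, and 0.0728 averaged), and the rest did not pass. The cell cycle, apoptosis and JNK lists had no called member among 7, 4 and 6 measured genes, and 0, 1 and 2 members were lower at an unadjusted p under 0.05. Among all 11982 genes, 2.21% were lower with 3 arrays, and 1229 were lower at an unadjusted p under 0.05 (limma). *Hsp68* ranged from 6.795 to 12.66 in the controls and stood at 7.71, 7.73 and 7.33 in Sens GOF (adjusted p = 0.366).

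Of the genes that the study predicts as direct targets of Sens, 62 of 76 had a value here, and 16 were lower and 7 higher with 3 arrays. Over all genes 2.21% were lower and 1.70% higher with 3 arrays, and 0.342% and 0.259% with arrays 1 and 2 averaged. The list was drawn up in part from genes that the study found changed in these same arrays. Its counts and its median are therefore not independent evidence of a change or of its direction. With arrays 1 and 2 averaged, 4 were lower, namely *Ace*, *Taf4*, *simj* and *NK7.1* (-0.54 ± 0.08, adjusted p = 0.00759, and 0.0461 averaged), and 2 were higher, namely CG17111 and CG13033. The median of the 62 was -0.27 against -0.01 over all genes. CG32726 was also higher with 3 arrays (1.35 ± 0.27, adjusted p = 0.0213, and 0.067 averaged).

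The line atoGal4 x UASato, with the same driver and UASato in place of UASsens, allows a direct comparison of the 2 lines. Line and transgene cannot be told apart in it. Between Sens GOF and atoGal4 x UASato, 192 genes were lower (1.60%) and 81 higher (0.676%) in Sens GOF at an adjusted p under 0.05, and 48 (0.401%) and 22 (0.184%) with arrays 1 and 2 averaged. The 273 calls became 66 or 72 without Sens GOF array 1 or 2 and 94, 86 or 105 without atoGal4 x UASato array 1, 2 or 3. *ato* stood at 11.30, 11.62 and 11.40 in the 3 atoGal4 x UASato arrays, above Sens GOF, and the difference of Sens GOF from it was -2.07 ± 0.18 (adjusted p = 6.93e-05, and 9.96e-04 averaged). *sens* stood at 9.81, 9.56 and 9.76 in atoGal4 x UASato, between the controls and Sens GOF, and was higher in Sens GOF by 2.30 ± 0.18 (adjusted p = 6.29e-05, and 8.64e-04 averaged). The genes *phyl*, *neur* and *elav* were lower in Sens GOF than in this line, while *da* did not pass (-0.32 ± 0.08, adjusted p = 0.0729, and 0.19 averaged). *phyl* stood at 10.73, 10.47 and 10.42 in atoGal4 x UASato, and the difference of Sens GOF was -1.05 ± 0.13 (adjusted p = 0.00185, and 0.0123 averaged). *neur* stood at 10.17, 10.02 and 10.42, with a difference of -0.88 ± 0.13 (adjusted p = 0.00566, and 0.0263 averaged), and *elav* at 10.80, 10.78 and 10.496, with a difference of -0.92 ± 0.12 (adjusted p = 0.00311, and 0.0198 averaged). In all 3 genes every Sens GOF array was below every atoGal4 x UASato array. *ro* stood at 8.32, 8.15 and 8.23 in atoGal4 x UASato, and the difference was -0.93 ± 0.18 (adjusted p = 0.0188, and 0.0712 averaged). In *phyl*, *neur* and *ro* Sens GOF overlapped the controls.

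Of the 265 genes lower in Sens GOF than in the controls, 110 were also lower than in atoGal4 x UASato in that test, and 60 of the 204 higher genes were also higher. With arrays 1 and 2 averaged in both tests, these were 15 of 41 and 14 of 31. Both tests use the same Sens GOF arrays, and the controls enter the spread in both. The overlap is therefore not independent evidence of a change. CR44101 stood at 3.41, 3.71 and 3.78 in atoGal4 x UASato (difference 4.94 ± 0.42, adjusted p = 6.29e-05, and 8.64e-04 averaged), CG17111 at 3.94, 4.14 and 4.54 (2.36 ± 0.20, adjusted p = 6.29e-05, and 8.64e-04 averaged) and *Cirl* at 8.95, 8.999 and 9.08 (-0.97 ± 0.11, adjusted p = 0.00108, and 0.00787 averaged). *Ace* differed by -1.62 ± 0.19 (adjusted p = 0.00145, and 0.0119 averaged) and *Delta* by -0.90 ± 0.11 (adjusted p = 0.0019, and 0.0123 averaged). *cato* did not pass in this comparison (0.54 ± 0.15, adjusted p = 0.0817, and 0.229 averaged), nor did *wol* (0.30 ± 0.09, adjusted p = 0.0955, and 0.207 averaged) or *CHOp24* (0.30 ± 0.08, adjusted p = 0.0769, and 0.197 averaged), while *Papst2* did (0.58 ± 0.08, adjusted p = 0.00329, and 0.0123 averaged).

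The lower genes were long and the higher genes short. The median distance between the ends of a gene in the RefSeq annotation was 11182 bases for the 262 lower genes that have one, 1694 bases for 203 higher genes and 2220 bases for 11428 genes that were not called. When genes were split by this length into 5 groups of like size, the group of the longest genes held 175 of the lower and 14 of the higher genes, and that of the shortest held 7 and 48. Over all genes of the longest group, called or not, the median difference was -0.15. With arrays 1 and 2 averaged, the medians were 10482 bases for 41 lower and 1784 bases for 30 higher genes. In single arrays, the median deviation from the controls of the longest group less that of the shortest was -0.152, -0.124 and -0.274 in Sens GOF. It ran from -0.033 to 0.135 in 7 controls, each set against the other 7, and was -0.244 in CantonS 1. The difference between 3′ and 5′ probe sets of the control transcripts, a measure of RNA integrity, was inside the control range in all 3 Sens GOF arrays for actin (0.403, 0.395 and 0.475), GAPDH (0.797, 0.868 and 0.908) and eIF-4a (0.637, 0.702 and 0.892). The part of gene length in the calls was not tested.

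The small chromosome 4 had a larger share of lower genes than the other arms. Of its 65 genes, 9 were lower (13.8%) and 1 was higher, against 1.77% to 2.62% lower on the other arms, and 2 of the 9 remained lower with arrays 1 and 2 averaged. These 2 were *Zyx*, the cytoskeletal protein zyxin, at 10.37, 10.36 and 10.33 against 10.80 to 11.15 (-0.60 ± 0.08, adjusted p = 0.00457, and 0.0339 averaged), and CG33941, at 7.85, 7.83 and 7.66 against 8.25 to 8.88 (-0.77 ± 0.11, adjusted p = 0.00741, and 0.0452 averaged). In both genes the Sens GOF arrays lay below every control. *unc-13*, CG11360 and *MED26*, given above, lie on this chromosome too, and the higher gene was CG1909 (0.87 ± 0.21, adjusted p = 0.0451, and 0.203 averaged). Over all 65 genes the median deviation from the controls was -0.208, -0.204 and -0.238 in the Sens GOF arrays. It was -0.167 in CantonS 1 and -0.033 to 0.084 in the other 7 controls. The origin of the chromosomes in each line is not given in the sources used here, and line and transgene cannot be told apart.

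**Figure D5:**
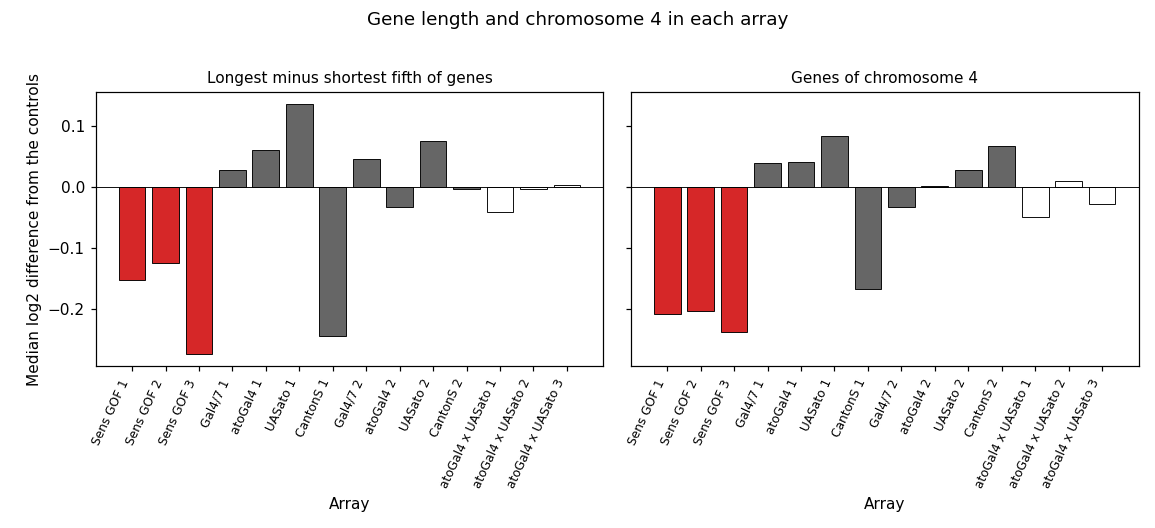
Left, median deviation from the controls (log2) of the longest less that of the shortest of 5 groups of genes in each array. Right, the median deviation of the 65 genes of chromosome 4. Sens GOF arrays are red, controls grey and atoGal4 x UASato white, and each control is set against the other 7. The 3 Sens GOF arrays and CantonS 1 are below the other 7 controls in both.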

How the data were processed

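RNA of eye-antennal imaginal discs was hybridised to Affymetrix Drosophila 2.0 arrays. The deposited values are log2 expression values that the authors made with RMA, which corrects the background, normalises all arrays to 1 distribution and joins the probes of a probe set into 1 value, so that differences are compressed at low signal. Other summaries named in the methods were not used here. Of 18952 probe sets, 183 control probe sets were left out and 18769 were tested. The platform annotation names 1 gene for 13647 probe sets, several for 402 and none for 4720, and symbols were updated through RefSeq. Each of 11982 genes was given by its brightest probe set, chosen among those that name only that gene, and 1094 genes have over 1 probe set.

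The 3 Sens GOF arrays were compared with the 8 controls by limma 3.58.1 (lmFit and eBayes, R 4.3.3), with Benjamini-Hochberg adjustment over all probe sets, and a gene was called at an adjusted p under 0.05. Sens GOF was compared with atoGal4 x UASato in a fit of the arrays of both lines and the 8 controls, which add only to the estimate of the spread. Tables and figures were made with Python 3.11.15. The script was tested on simulated data. Genes were named where they were the *sens*, *ato* or *ro* gene, among the largest differences beyond every control, or in a list, where up to 4 called members with the largest change were taken or, with none called, the brightest. All other genes named, called or not, were chosen with their values known. The members and lists were chosen with earlier results of these data known. Alternatives covered filters, normalisation, the controls used, blocks, weights and each array left out. Arrays have no read depth, and their number limits the precision. No genome was used here, so promoter motifs were not searched.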

Additional observations from a re-analysis of the deposited data

Results flagged for a closer look

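In 16 of 154 named genes, 1 control array was far from the other 7 (its gap to the nearest array, over the range of the 8 controls, passed Dixon's critical value). Chance marks about 1 in 20 such groups. CantonS 1 was the lowest control in 8 of them, at 5.68 for CG34347, 9.48 for *nkd*, 8.60 for *robo1*, 8.12 for *CadN*, 9.79 for *nsl1*, 10.22 for *dom*, 7.67 for *Liprin-alpha* and 8.76 for *lz*. Gal4/7 2 was the lowest at 6.60 for *brp*, 7.31 for *rdgA*, 11.17 for *SrpRalpha* and 11.13 for *deltaCOP*, and the highest at 14.71 for *Jon65Aiv*, a digestive protease gene. CG7556 was lowest in atoGal4 1 at 9.46. CG7872 was highest in CantonS 2 at 9.86 and *Hnf4* in UASato 1 at 9.52.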

How the results depend on the processing

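Counts are given in the order lower at an adjusted p under 0.01 (41), lower under 0.05 (265), higher by over 2-fold (21), higher under 0.05 (204) and called members of the lists (40). They became 4, 41, 9, 31 and 11 with Sens GOF arrays 1 and 2 averaged. With array 3 as the only Sens GOF array, an alternative added after the data were seen, they were 0, 6, 13, 19 and 3. Against the atoGal4 controls only they were 0, 26, 33, 41 and 5. Leaving out Gal4/7 gave 14, 150 and 115 for both lower counts and the higher count under 0.05, leaving out atoGal4 gave 13 for the first, leaving out UASato gave 4, 86, 80 and 17 for all but the 2-fold count, and leaving out CantonS gave 102, 466 and 33 for the first 3. With all 20 arrays in 1 fit the first 4 were 162, 471, 38 and 383. Array weights gave 736, 1541, 161, 1647 and 121, with Sens GOF arrays weighted 6.77, 1.55 and 0.462. Line as a random block gave 14, 169 and 116. Unadjusted p-values gave 576, 1229, 85 and 1150, and a 1.5-fold limit gave 73 higher genes. Leaving out 1 array gave 4 to 173, 32 to 551, 9 to 50, 31 to 323 and 11 to 63. Beside the Sens GOF arrays and CantonS 1, leaving out any control array but Gal4/7 2 left 10 to 16 genes lower under 0.01, UASato 1, UASato 2 or CantonS 2 left 172, 172 or 168 lower under 0.05, and Gal4/7 1 or CantonS 2 left 134 or 129 higher. The 273 differences from atoGal4 x UASato became 702 in a fit of these 6 arrays alone, 70 with averaging and 66 to 383 without 1 array. The replicate block gave 11, 104, 50, 143 and 26, but samples share only a number (correlations of -0.136 to 0.288 over 10 pairs of lines).

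Over all genes 469 were called, and 72 of them stayed called with averaging. The named set took in every one of these 72, so their share among the named genes was fixed by the choice. Of 125 named genes called, 72 stayed called with averaging, 17 against the atoGal4 controls only and 52 in every fit without 1 array. Under the alternatives run, direction changed in none of these called genes, and only for the uncalled *boss* (-0.11) and *pros* (0.25) against the atoGal4 controls, *ro* (0.0090) without the atoGal4 line, and *boss* (-0.084), *pros* (0.13), *Sgs1* (2.13) and *Jon65Aiv* (-2.15) with array 3 alone. The cause was not tested. Promoter motifs were not run.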
